A study of Mus musculus with 96 samples.

Results

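The response of RAW 264.7 cells to 2 h of lipopolysaccharide (LPS) was read from 6 arrays of 96, chosen by their labels as LPS alone for 2 h. RAW 264.7 is a mouse macrophage-like cell line. LPS was given at 100 ng, with no volume stated in the labels, together with 100 pM LPS-binding protein. Each array carried RNA of treated cells in 1 dye and RNA of untreated cells, matched for set and time, in the other dye, so every value is a ratio and no absolute level is known. The 6 arrays form 3 sets, each hybridised in both dye orders, and the mean of both orders gave 1 value per set (n = 3). The series holds 16 combinations of ligand and time, of which LPS alone at 30 min, 1 h and 4 h and interferon gamma (IFNG, 5 nM) at 2 h are used here for comparison, each with 3 sets. The labels do not say that sets were separate cultures, so the variation between sets may be technical. The spread behind each p-value was pooled over the sets of all 16 combinations. A gene that is uneven over its own 3 sets can therefore still be called.

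LPS, an outer-membrane lipid of Gram-negative bacteria, is carried by LPS-binding protein and Cd14 to the receptor Tlr4 with its partner Md-2 (Ly96). Tlr4 signals through the adaptor Myd88 to NF-kB and MAP kinases, which switch on cytokine genes and their own inhibitors, and through Trif to Irf3, which with NF-kB switches on interferon beta. Secreted interferon beta then acts back on the cells through its receptor to induce antiviral genes, so that a later layer of the response follows an earlier one.

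Of 16281 probes, 14659 to 14920 had a value on each of the 6 arrays, and 1077 were at exactly 0, read as no measurement, on all of them. Precision is limited by how few arrays there are; a mean log2 ratio had a median standard error of 0.11. Before their signs were turned to treated over untreated, the 2 arrays of a set correlated below 0 across probes in every set. Arrays of different sets correlated at 0.594 to 0.726 in the same dye order and at 0.217 to 0.514 in opposite orders, and set values at 0.605 to 0.698. Markers that define T cells (5 tested), B cells (4), epithelium (4) and fibroblasts (5) gave 0 calls in limma, and 0 at an unadjusted p under 0.05, and of 5 neutrophil markers Ly6g gave 1, at 0.20, which was lost with any 1 set left out (0.14 to 0.25). Of 6 macrophage markers tested Fcgr1 was lower (-0.45) and the others were not called. Ratios do not show whether a marker was present at all.

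Set 3 stood apart for part of the response. Among the 212 genes that rose 2-fold or more and had a value in every set, set 3 was the lowest of the 3 sets for 125 (59.0%), against 29.2% of all genes tested. Among the 43 genes that fell 2-fold or more, set 3 was the highest, and so fell least, for 26 (60.5%). Over all genes tested that share was 37.6%. Set 3 thus more often had the smallest change in both directions. Ifit2, an interferon-induced RNA-binding antiviral protein, had log2 ratios of 3.54, 3.38 and 0.29 in sets 1, 2 and 3. Rcan1, an inhibitor of calcineurin, had 2.02, 1.93 and -0.60, and was named after its values were seen. Egr1, an immediate-early transcription factor, stood the other way at -0.12, -0.58 and 2.55. List counts below are therefore given with and without set 3 where they differ by more than 1 gene, and the set is described further after the gene groups.

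After 2 h of LPS, 1857 of 11589 genes tested (16%) differed from untreated cells at an adjusted p under 0.05 in limma, with Benjamini-Hochberg adjustment over all genes. Of these, 909 were higher (7.84%) and 948 lower (8.18%), but the rises were larger. The median called rise was 0.57 on the log2 scale and the median called fall was -0.42, and 213 genes rose 2-fold or more (1.84%) against 43 that fell as far (0.371%). On all 6 arrays 1339 of the 1857 genes kept 1 sign, as did 254 of the 256 that changed 2-fold or more. At an unadjusted p under 0.05 there were 3037 genes. Without set 1 in any group the count was 998, without set 2 it was 1656, and without set 3 it was 1401. Of 195 list members called, 48 were not called without set 1, 36 without set 2 and 18 without set 3, and 135 were called with each set left out. Genes named below that lost their call this way are given with their values.

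**Figure D1:**
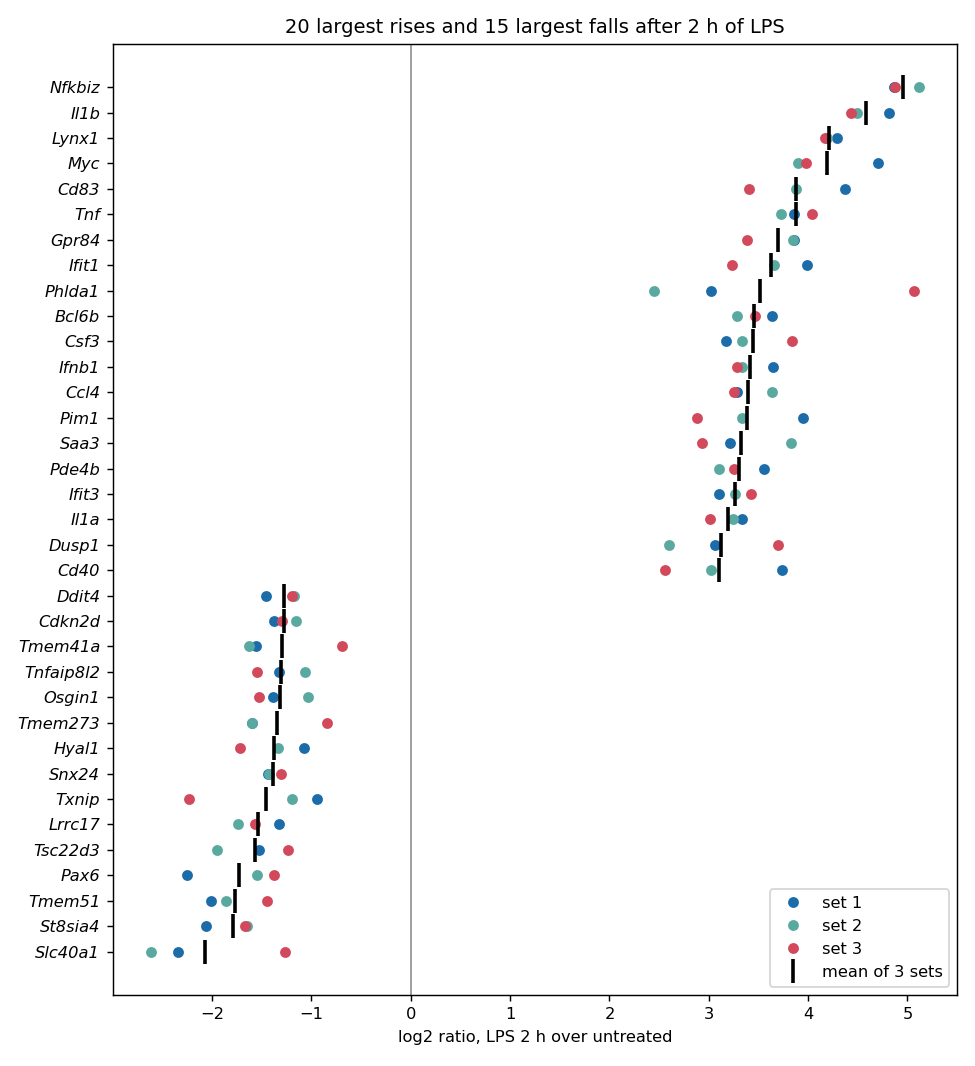
Log2 ratio of LPS at 2 h over untreated (horizontal axis) for the 20 named genes with the largest rises and the 15 with the largest falls that kept 1 sign on all 6 arrays. Points are the 3 sets and bars their mean; Nfkbiz leads with a mean of 4.95 and Slc40a1 has the lowest mean, -2.07.

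The 20 largest rises were led by Nfkbiz, the inducible nuclear IkB protein that acts with NF-kB on secondary response genes. Its log2 ratios were 4.86, 5.12 and 4.88 in sets 1 to 3. The mean was 4.95 ± 0.14 (SD, n = 3), which is 31.0-fold (adjusted p = 5.53e-18). Il1b, the precursor of interleukin-1 beta, followed with 4.81, 4.50 and 4.43, a mean of 4.58 ± 0.20 and 23.9-fold. Myc, the growth-promoting transcription factor, had 4.70, 3.90 and 3.98 (mean 4.19 ± 0.44). For each of these genes the spread between sets was small beside the change.

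Genes of other kinds were also among the 20. Cd83, a maturation marker of antigen-presenting cells, had a mean of 3.88 ± 0.49, and Gpr84, a receptor for medium-chain fatty acids, one of 3.69 ± 0.27. Pim1, a serine/threonine kinase, reached 3.39 ± 0.54, and Pde4b, a phosphodiesterase that breaks down cAMP, 3.30 ± 0.23. Bcl6b, a transcriptional repressor, was at 3.46 ± 0.17. Phlda1 was the most uneven of the 20, with 3.03, 2.45 and 5.06 in sets 1 to 3 and a mean of 3.51 ± 1.37. Lynx1 was at 4.21 ± 0.06 by its tested probe, while a probe that the filter left out gave a mean of 0.14, so the rise rests on 1 of the 2 probes.

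**Figure D2:**
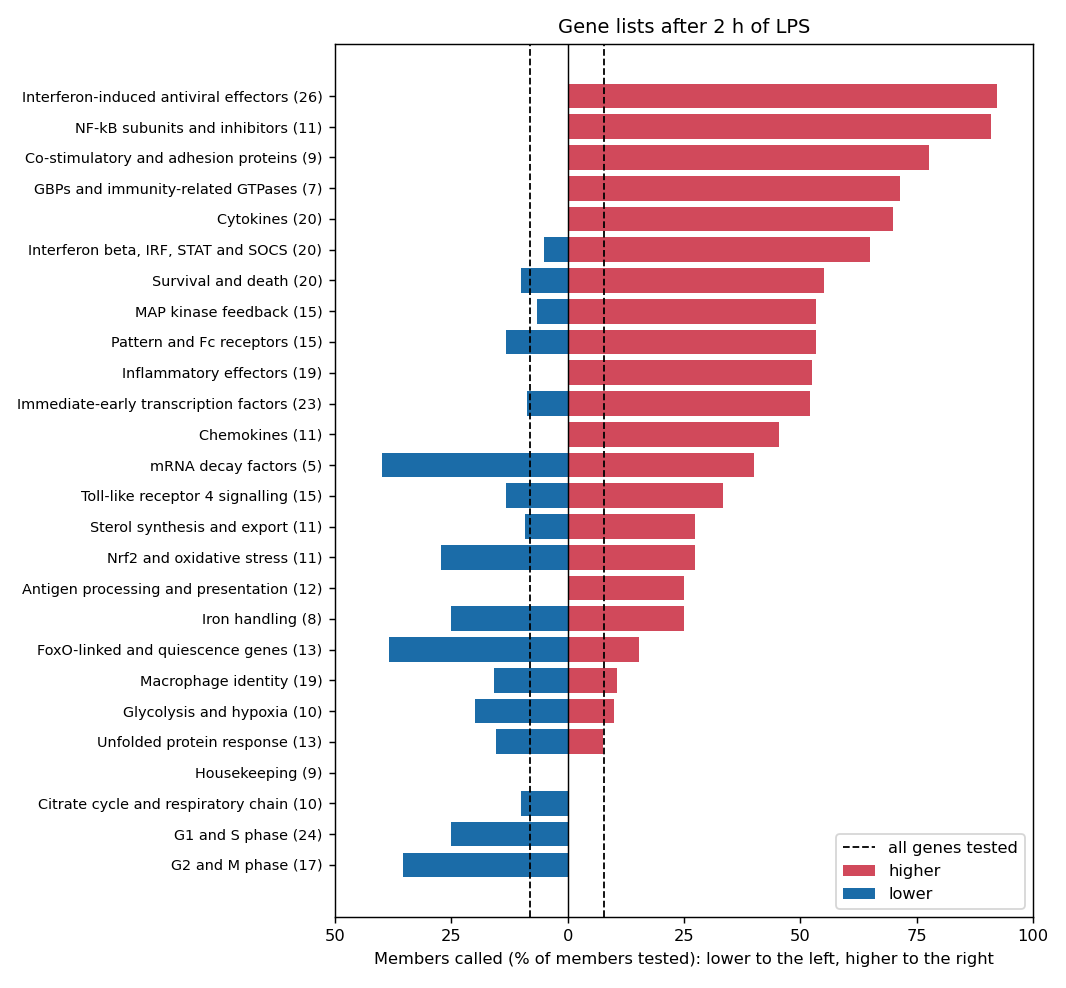
Share of tested members of each gene list that were called higher (to the right) or lower (to the left) after 2 h of LPS, with the number tested in brackets; dashed lines mark the shares over all genes tested, 7.84% higher and 8.18% lower. Antiviral effectors and NF-kB genes stand at the top, and both cell cycle lists have lower calls and no higher ones. Lists and members were chosen with earlier results of these data known, which may have raised these shares.

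NF-kB family genes and their inhibitors rose together. NF-kB is held in the cytoplasm by IkB proteins, whose genes are themselves targets of NF-kB, so the system restrains itself. Of 11 members tested, 10 were higher and 0 lower, with a median log2 ratio of 1.71 beside -0.01 over all genes tested. After Nfkbiz came Nfkbie, which encodes IkB epsilon, with 3.27, 2.69 and 1.63 in sets 1 to 3 (mean 2.53). Tnip1 and Tnfaip3, whose products work together to shut down ubiquitin-dependent signalling to NF-kB, had means of 2.38 and 2.30. Bcl3, another nuclear IkB protein, was at 2.00. The subunits Relb (1.71), Nfkb2 (1.67), Rel (1.44) and Rela (0.81) were all higher, and Tnip2 (0.35) was the member not called. Nfkbia, the gene of IkB alpha, had a value on 1 of 6 arrays and was not tested.

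Promoter windows of RefSeq genes on GRCm38.p6, from 250 bases before to 50 after an annotated start, were searched on both strands for an NF-kB motif, GGG and TTCC with any 3 bases between them; a stricter form with T as the last of those 3 is a special case of it. Of the 10 NF-kB list genes that rose, 8 had a window and 5 of these held a match, beside 536 of 7761 named genes tested (6.9%) and 6.3% of all 27025 genes with a window. Over all named genes that rose 2-fold or more the share was much lower than in this list, at 14 of 142 with a window (9.9%). Among those that fell as far it was 2 of 32 (6.2%). The windows of Nfkbie (chr17:45555450-45555749, plus strand) and Tnip1 (chr11:54962891-54963190, minus strand) are shown because these inhibitors were among the largest rises of the list, with matches in capitals.
Nfkbie: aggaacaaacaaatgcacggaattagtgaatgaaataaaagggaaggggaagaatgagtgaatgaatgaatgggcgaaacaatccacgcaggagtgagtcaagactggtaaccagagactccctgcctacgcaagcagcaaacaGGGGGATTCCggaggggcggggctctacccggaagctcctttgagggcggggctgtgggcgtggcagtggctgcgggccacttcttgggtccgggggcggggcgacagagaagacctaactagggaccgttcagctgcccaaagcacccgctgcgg
Tnip1: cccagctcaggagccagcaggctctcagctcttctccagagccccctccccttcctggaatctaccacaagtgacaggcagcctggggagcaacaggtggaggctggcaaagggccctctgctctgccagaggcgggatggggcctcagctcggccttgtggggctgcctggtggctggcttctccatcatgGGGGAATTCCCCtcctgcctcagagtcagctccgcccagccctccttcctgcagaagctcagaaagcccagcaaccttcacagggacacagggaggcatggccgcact
In Nfkbie the match begins at position -106, where -1 is the base before the annotated start. In Tnip1, matches on opposite strands overlap, beginning at -58 and -56. A match describes the letters in the window and shows no binding.

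Cytokine genes formed another large block of rises. Of 20 tested, 14 were higher and 0 lower (median 0.99). Tnf, the early inflammatory cytokine, had 3.86, 3.73 and 4.04 in sets 1 to 3, a mean of 3.87 ± 0.16. Csf3, which drives granulocyte production, reached 3.45 ± 0.35, and Il1a, the sister gene of Il1b, 3.20 ± 0.17. Il10, the main anti-inflammatory cytokine of macrophages, was already higher at 2.29 (2.00, 1.92 and 2.96). Il6 stood at 1.52, 2.27 and 2.23, and Lif, of the same receptor family, at 1.63. The subunits of interleukin-12 and interleukin-23 were not called: Il12b was at 0.04, Il12a at 0.03 and Il23a at 0.07.

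Among chemokines, which attract leukocytes, 5 of 11 tested were higher and 0 lower (median 0.25). Ccl4 had 3.28, 3.63 and 3.26 in sets 1 to 3 (mean 3.39 ± 0.21). Ccl7 averaged 2.89 over 3 probes that disagreed, with 4.10 and 4.42 for a pair of them and 0.15 for the other. Ccl22 was at 1.49 and Cxcl16 at 1.32. Ccl5 was not called by its tested probe (0.25), while a probe that the filter left out read 3.33, 3.32 and 3.15. Cxcl10, Cxcl11 and Ccl5's second probe were left out because other groups of the series lacked values, and Ccl2 and Ccl3 had no value on any of the 6 arrays.

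Immediate-early transcription factors, the genes that cells switch on within minutes without new protein synthesis, were mixed at 2 h. Of 23 tested, 12 were higher and 2 lower (median 0.66), and 10 were higher without set 3. Besides Myc, Cebpd was even across sets at 2.32, 2.30 and 2.21, and Ier3 (1.92), Fosl1 (1.69), Egr2 (1.66) and Atf3 (1.59) were higher. Jun, the partner of Fos in AP-1, was lower in every set, at -0.80, -1.06 and -1.21 (mean -1.02 ± 0.21, adjusted p = 2.74e-06), and Klf4 fell by 0.61 on the log2 scale. Fos (-0.24), Nr4a1 (0.27) and Egr1 (0.61) did not pass. Jund, which also joins AP-1, was higher at 1.56. Egr2 was not called without set 1 (1.72, adjusted p = 0.0994) or set 3 (1.25, adjusted p = 0.149), nor Klf4 without set 1 (-0.53, adjusted p = 0.187) or set 2 (-0.51, adjusted p = 0.129).

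In a list of MAP kinase feedback genes, which holds both inhibitors and activators of these kinases, 8 of 15 tested were higher and 1 lower (median 0.79). Dusp1, the phosphatase that inactivates p38 and JNK, had 3.06, 2.60 and 3.70 in sets 1 to 3 (mean 3.12 ± 0.55). Gadd45b was at 2.70 and Gadd45a at 2.66 ± 0.03, both stress-induced regulators of p38 and JNK signalling. Rgs16, a G protein regulator, had 3.13, 3.07 and 1.39, and Map3k8, the kinase Tpl2 upstream of ERK, 2.46, 2.00 and 1.53. Rgs2 was the member that was lower, at -0.77, and was not called without set 1 (-0.72, adjusted p = 0.105). Spry1 (0.26), Spry2 (-0.16) and Spry4 (0.01), inhibitors of ERK signalling, were not called.

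Interferon beta was strongly raised. Ifnb1 had log2 ratios of 3.64, 3.33 and 3.28 in sets 1 to 3, a mean of 3.42 ± 0.20 (adjusted p = 4.82e-12), so set 3 did not stand apart for the interferon gene itself. In its list of interferon regulators and signal transducers, 13 of 20 tested were higher and 1 lower (median 0.50). Irf1 was at 2.29, the kinase Jak2 at 2.10, and Cish, an inhibitor of cytokine receptors, at 1.71. Stat2 (0.83), Irf9 (0.65) and Irf7 (0.61), the transcription factors of the type I interferon loop, were higher, and the receptor chain Ifnar2 was lower at -0.43. Irf3 (0.01), which is activated by phosphorylation, and Socs3 (0.06) did not pass. Without set 1, Irf9 (0.42, adjusted p = 0.0602) and Ifnar2 (-0.41, adjusted p = 0.0508) were not called.

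Interferon-induced antiviral effectors were the list with the largest share of rises, among lists drawn up with earlier results of these data known. Of 26 tested, 24 were higher and 0 lower, with a median of 1.11. The count was again 24 without set 3, but of other members: Oas1g was no longer called (0.61, adjusted p = 0.0827) and Sp100 was (0.47, adjusted p = 0.000445). Ifit1, which binds foreign RNA caps, had 3.99, 3.65 and 3.23 in sets 1 to 3 (mean 3.63 ± 0.38, adjusted p = 3.13e-19). Cmpk2, a mitochondrial nucleotide kinase, had 3.92, 3.18 and 2.08, and Mx2, a dynamin-like antiviral GTPase, 3.00, 3.14 and 2.52. Isg15, a ubiquitin-like modifier, was even at 2.81, 2.82 and 2.76. With all sets, Sp100 (0.34) and Isg20 (0.04) were the members not called. Tgtp1, Gbp3, Irgm2, Igtp and Gbp8, of the GTPases that attack pathogen-containing vacuoles, were higher, 5 of 7 tested with 0 lower. Iigp1 (0.32) and Gbp4 (0.01) of this family were not called. Tgtp1 was not called without set 1 (0.84, adjusted p = 0.152) or set 2 (0.65, adjusted p = 0.184), nor Gbp8 without set 1 (0.65, adjusted p = 0.0591) or set 2 (0.88, adjusted p = 0.0888).

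The promoter windows of Ifnb1 (chr4:88522745-88523044, minus strand), Isg15 (chr4:156200769-156201068, minus strand) and Irgm2 (chr11:58214727-58215026, plus strand) are shown because they set the interferon gene beside targets of 2 kinds, an antiviral effector and a GTPase, with matches to the NF-kB motifs or to the interferon-stimulated response element, GAAA repeated after any 2 bases, on either strand in capitals.
Ifnb1: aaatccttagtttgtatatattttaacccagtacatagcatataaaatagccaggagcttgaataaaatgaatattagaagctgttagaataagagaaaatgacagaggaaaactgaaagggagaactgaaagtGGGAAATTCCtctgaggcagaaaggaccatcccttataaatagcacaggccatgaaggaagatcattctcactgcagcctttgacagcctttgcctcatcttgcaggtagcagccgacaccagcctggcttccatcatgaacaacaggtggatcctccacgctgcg
Isg15: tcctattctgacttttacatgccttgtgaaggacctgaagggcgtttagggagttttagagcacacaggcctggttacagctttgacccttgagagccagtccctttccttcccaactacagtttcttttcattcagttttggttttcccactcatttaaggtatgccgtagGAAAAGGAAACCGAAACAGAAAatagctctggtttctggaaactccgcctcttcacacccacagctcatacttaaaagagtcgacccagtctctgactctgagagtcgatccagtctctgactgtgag
Irgm2: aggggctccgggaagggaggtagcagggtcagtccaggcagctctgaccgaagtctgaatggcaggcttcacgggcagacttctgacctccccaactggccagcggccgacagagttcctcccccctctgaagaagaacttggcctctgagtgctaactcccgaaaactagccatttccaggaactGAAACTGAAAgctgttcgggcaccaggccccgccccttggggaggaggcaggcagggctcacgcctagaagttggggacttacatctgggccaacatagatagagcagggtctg
Ifnb1 holds an NF-kB match at -116 and no match to the response element pattern as searched here. Repeats of GAAA at other spacings, which this window holds, were not counted. Isg15 holds 3 overlapping matches to the response element pattern that begin at -78, -72 and -66, and Irgm2 holds 1 at -64. Of the 24 antiviral genes that rose, 15 had a window and 8 of these held a response element (53.3%), and all 4 of the GTPase genes that rose and had a window held 1. Over named genes tested the share was 3.9%, and over the 10 NF-kB list genes that rose it was 0 of 8. The AP-1 motif TGANTCA was in 24 of 142 windowed genes that rose 2-fold or more (16.9%) and in 8.1% of named genes tested. The promoter table is incomplete, and these shares are descriptions.

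Several interferon targets had values on most or all LPS arrays at 2 h but were not among the 11589 genes tested, because the filter asked for values in at least 2 sets of every group in the series. Since they were measured at 2 h of LPS but not in at least 1 other group, their ratios are given as a description, with no test. Rsad2, the antiviral enzyme viperin, had 4.55 and 3.66 in sets 1 and 3 and no value in set 2 (mean 4.10). Cxcl10, a ligand of Cxcr3, had 4.34, 3.55 and 3.79 in sets 1 to 3 (mean 3.89 ± 0.41). Ifih1, the cytosolic RNA sensor Mda5, had 3.60, 3.53 and 2.94 (mean 3.36 ± 0.36). All 3 were above 0 on every array with a value. Gbp2 had a mean of 2.58, Cxcl11 of 2.51, Irgm1 of 1.77 and Usp18, the protease that removes Isg15, of 1.02. Dusp6, a phosphatase of ERK, had -1.38 and -1.01 in sets 1 and 2 and no value in set 3.

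Among pattern-recognition and Fc receptors 8 of 15 tested were higher and 2 lower (median 0.36). Clec4e, the receptor Mincle, was even at 2.38, 2.52 and 2.28, and Tlr2 had 2.55, 2.20 and 1.92. Fcgr3 (-0.64) and Fcgr1 (-0.45), receptors for immunoglobulin G, were lower, but Fcgr3 was not called without set 1 (-0.57, adjusted p = 0.08) or set 3 (-0.49, adjusted p = 0.122). Of 15 genes of the Tlr4 pathway tested, 5 were higher and 2 lower (median 0.20). Tlr4 itself was lower in every set, at -0.71, -0.73 and -0.88 (mean -0.77), as was Tab1 (-0.51), while Ikbke, a kinase upstream of Irf3, was higher at 1.16 and Myd88 at 0.46. Cd14 (0.28) and Ly96 (-0.01) did not pass. Tab1 was not called without set 1 (-0.49, adjusted p = 0.0843) or set 3 (-0.47, adjusted p = 0.0647), and Cd14 was called without set 2 (0.49, adjusted p = 0.0151).

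Inflammatory effectors were higher for 10 of 19 tested with 0 lower (median 0.67). Saa3, an acute-phase protein, had 3.21, 3.83 and 2.94 in sets 1 to 3, and Ptgs2, the inducible cyclooxygenase, 3.47, 2.40 and 2.72. Hdc, which makes histamine, was at 2.32, and Nos2, the inducible nitric oxide synthase, at 0.88, 0.96 and 0.16 (mean 0.67), not called without set 2 (0.52, adjusted p = 0.107). Co-stimulatory and adhesion genes were higher for 7 of 9 with 0 lower (median 1.45), among them Cd40 at 3.73, 3.02 and 2.56 and Cd274, the ligand of PD-1, at 1.58. Cd86 (0.20) did not pass. Antigen processing genes, in contrast, were higher for 3 of 12 with 0 lower (median 0.15), and the peptide transporter Tap1 had 1.00, 0.44 and -0.24 and was called only without set 3 (0.72, adjusted p = 0.0033).

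Survival and death genes were higher for 11 of 20 tested and lower for 2 (median 0.53), and 13 were higher without set 3. Traf1 (2.93), Cflar (2.06), Bcl2a1a (1.95) and Birc3 (1.55), which restrain apoptosis, rose beside Fas (2.39), a death receptor, and Bcl2l11 (2.36), the pro-apoptotic Bim. The Bcl2a1 genes are near-identical copies, and the array may not tell them apart. Bcl2 (-0.52) and Bbc3 (-0.24) were lower. Without set 2 Bcl2 was at -0.34, still called, and Bbc3 was not called without set 1 (-0.25, adjusted p = 0.214) or set 2 (-0.15, adjusted p = 0.279). Among mRNA decay factors, Zfp36 (2.16) and Zfp36l1 (2.06), which destabilise cytokine mRNAs, were higher, and Zfp36l2 (-0.66) and Cnot8 (-0.43) were lower, of 5 tested.

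The falls were led by Slc40a1, the gene of ferroportin, the only known cellular iron exporter. It had log2 ratios of -2.34, -2.61 and -1.27 in sets 1 to 3 (mean -2.07 ± 0.71, adjusted p = 4.03e-06), so set 3 fell least. In the iron list the importer genes Slc11a2 (1.22) and Slc11a1 (0.62) were higher, 2 of 8 tested, and 2 were lower. St8sia4, a polysialyltransferase, was at -1.79 ± 0.23, Tmem51 at -1.77 ± 0.29 and Pax6, a developmental transcription factor, at -1.73 ± 0.46. Snx24, a sorting nexin, fell evenly (-1.44, -1.43 and -1.30), as did Tnfaip8l2, a restraint on Toll-like receptor signalling known as TIPE2 (-1.33, -1.06 and -1.54). Ddit4, an inhibitor of mTOR, was at -1.28 ± 0.16, and was not called without set 1 (-1.19, adjusted p = 0.0755).

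Genes linked to FoxO factors and quiescence fell for 5 of 13 tested and rose for 2 (median -0.13). Tsc22d3, the glucocorticoid-induced leucine zipper, had -1.52, -1.95 and -1.24, and Txnip, an inhibitor of thioredoxin and glucose uptake, -0.95, -1.19 and -2.23. Ccng2, a cyclin of resting cells, was at -1.09, and the cell cycle inhibitor Cdkn1b at -0.55. Id3 (1.24) and Bcl6 (0.60), both repressors, were higher. Cdkn1b was not called without set 2 (-0.58, adjusted p = 0.0614), nor Bcl6 without set 1 (0.53, adjusted p = 0.296) or set 2 (0.66, adjusted p = 0.0583). Cdkn2d, another cell cycle inhibitor outside this list, fell by 1.28 on the log2 scale.

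Of 41 cell cycle genes tested, 12 were lower, beside 8.18% of all genes tested, and the others were not called. These members too were chosen with earlier results of these data known. Of 24 genes of G1 and S phase 6 were lower and 0 higher (median -0.17), led by the replication licensing factor Cdc6 at -0.87, -0.82 and -0.72. Of 17 genes of G2 and M phase 6 were lower and 0 higher (median -0.22), with the mitotic kinase Aurka at -0.43 and Kif20a at -0.42, the latter not called without set 1 (-0.54, adjusted p = 0.149) or set 2 (-0.26, adjusted p = 0.305). Without set 3, 2 genes of the G1 and S list were called higher and 6 lower. Ccnd1 (-0.38) and Mki67 (-0.17) did not pass, but without set 3 Mki67 was called (-0.36, adjusted p = 0.0194). None of these called members changed 2-fold.

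Metabolic, stress and lineage lists gave calls in both directions, several of which were lost with 1 set left out. Over all genes tested 7.84% were higher and 8.18% lower. The 1 of 10 called in the citrate cycle and respiratory chain is near that share, and the counts here describe members, not lists. Glycolysis and hypoxia genes gave 1 higher, the glucose transporter Slc2a1 (0.83), and 2 lower, Pfkfb3 (-0.65) and Bnip3 (-0.54), of 10 tested. Without set 3 neither Bnip3 (-0.23, adjusted p = 0.58) nor Pfkfb3 (-0.77, adjusted p = 0.0533) was called, and without set 1 they were at -0.57 and -0.39, also not called. Bnip3 was at -0.83 without set 2. In the citrate cycle and respiratory chain 1 of 10 was lower, Sdhb (-0.27), which was not called without set 3 (-0.08, adjusted p = 0.744) or set 2 (-0.34, adjusted p = 0.0639). Sterol genes gave 3 higher and 1 lower of 11, the latter being the exporter Abcg1 (-0.94), not called without set 2 (-0.72, adjusted p = 0.0756). Of 13 unfolded protein response genes Herpud1 (1.00) was higher and Xbp1 (-0.52) and Sdf2l1 (-0.42) lower. Herpud1 was not called without set 1 (0.98, adjusted p = 0.0929) or set 3 (0.77, adjusted p = 0.0669), Xbp1 with any 1 set left out (-0.68 to -0.41), and Sdf2l1 without set 1 (-0.39) or set 2 (-0.32). Nrf2 targets split, with Slc7a11 (1.34), Srxn1 (1.01) and Txnrd1 (0.67) higher and Osgin1 (-1.32), Gclc (-0.49) and Gclm (-0.31) lower of 11. Srxn1 was not called without set 1 (0.72, adjusted p = 0.0986), nor Gclm without set 1 (-0.22, adjusted p = 0.341) or set 2 (-0.26, adjusted p = 0.178). Of 19 macrophage identity genes Tfec (0.71) and Spi1 (0.62), the gene of PU.1, were higher and Cnr2 (-1.13), Mef2c (-0.73) and Trem2 (-0.45) lower. Spi1 was not called without set 1 (0.43, adjusted p = 0.234) or set 3 (0.67, adjusted p = 0.113), nor Mef2c without set 2 (-0.81, adjusted p = 0.058) or set 3 (-0.39, adjusted p = 0.172). Of 9 housekeeping genes 0 were called in limma and 1 had an unadjusted p under 0.05; without set 3, 1 was higher and 1, Polr2a, was lower (-0.56).

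**Figure D3:**
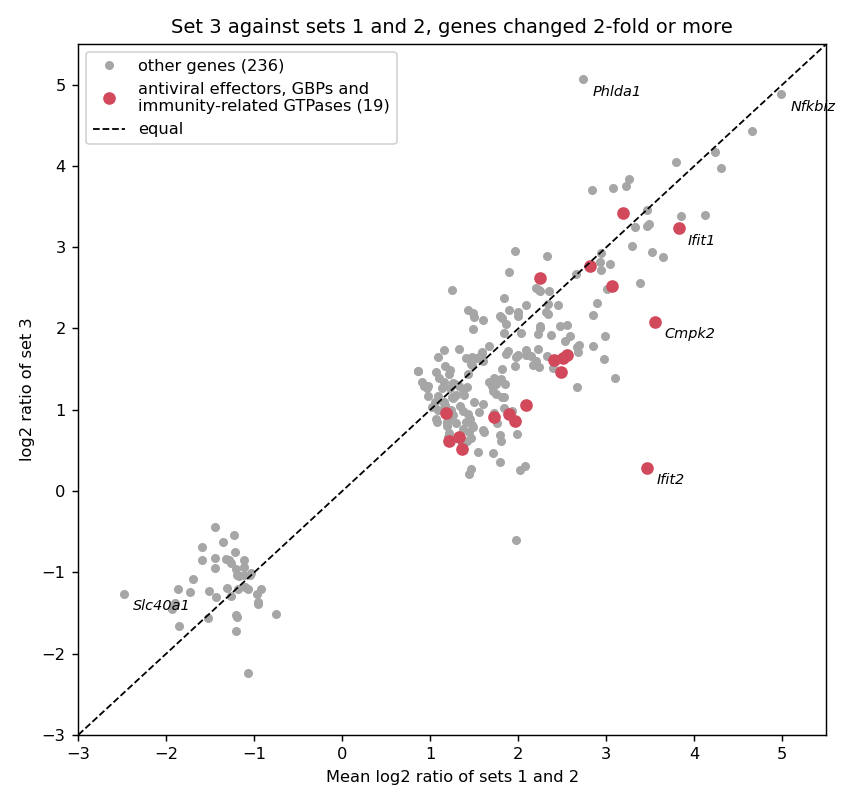
Log2 ratio of set 3 (vertical axis) against the mean of sets 1 and 2 (horizontal axis) for 255 genes that changed 2-fold or more and have 3 set values, with the line of equality. Of 19 antiviral, guanylate-binding and immunity-related GTPase genes, all rises, 17 lie below the line, beside 143 of 236 other genes. The other genes include falls, for which a point above the line is a smaller change, so the 2 shares are not alike.

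Set 3 was low in several gene groups. It was the lowest set for 21 of 26 antiviral genes (80.8%) and for all 7 GTPases, and for 14 of 20 in the list with Ifnb1, against 29.2% of all genes tested. It was also lowest for 8 of 10 genes of the citrate cycle and respiratory chain, 12 of 15 pattern and Fc receptors, 7 of 9 co-stimulatory genes and 8 of 11 antigen processing genes, so interferon genes were not alone in this. The median antiviral log2 ratio at 2 h was 1.40 and 1.41 in sets 1 and 2 and 0.76 in set 3. At 4 h the 3 sets had 3.09, 2.85 and 2.72, and with IFNG at 2 h they had 1.35, 1.41 and 1.21. Zbp1, a sensor of nucleic acids, had 1.16, 1.52 and 0.03, and Tgtp1 had 1.28, 1.66 and 0.02. Phlda1 and Egr1, whose 1 h means were 4.31 and 4.14, were instead highest in set 3. The list of immediate-early transcription factors did not share this, with medians of 0.50, 0.63 and 0.55 in sets 1 to 3. Of its 23 genes, set 3 was highest for 11 (47.8%, against 37.6% of all genes tested) and lowest for 8.

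Each set's departure from the mean of the other sets was also laid beside the difference between the 4 h and 1 h LPS means, which come from other arrays. Over the 255 genes the correlation was -0.511 for set 3, 0.365 for set 1 and 0.398 for set 2. Over all 11408 genes with 3 set values it was weaker, at -0.168, 0.155 and 0.0325 for sets 3, 1 and 2. The genes share arrays and were chosen at 2 h, and the 3 departures are not independent, so these values are a description. Which handling of set 3 differed, if any, was not tested. Without set 3, Ifit2 had a mean of 3.46 in place of 2.40, and Rcan1 1.97 in place of 1.11. Rcan1 was not called without set 1 (0.66, adjusted p = 0.386) or set 2 (0.71, adjusted p = 0.308), nor Zbp1 without set 1 (0.77, adjusted p = 0.35) or set 2 (0.59, adjusted p = 0.356).

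The comparison with LPS at 1 h asked what the second hour added. Between 1 h and 2 h, 282 genes differed (2.43%), 192 higher at 2 h (1.66%) and 90 lower (0.777%). Without set 1 the count was 76 and without set 2 it was 141. Antiviral effectors were called higher than at 1 h for 16 of 26, with a list median of 0.07 at 1 h and 1.11 at 2 h. Cmpk2 was at 0.06 at 1 h and 3.06 at 2 h, a difference of 3.00 (SE 0.32, adjusted p = 3.98e-08). Ifit1 went from 0.84 to 3.63, Mx2 from 0.28 to 2.89 and Irgm2 from -0.28 to 2.14. Ifit3, one of the 20 largest rises, was already at 3.03 at 30 min and 2.57 ± 1.01 at 1 h. This rests on 1 tested probe that differed from those of its relatives. At 30 min Ifit1 was at 0.20 and Ifit2 at -0.11. With IFNG at 2 h Ifit3 was at 0.62, and Ifit1 and Ifit2 were at 1.75 and 2.06. Whether the probe reports Ifit3 alone was not tested. The Ifit3 value of 3.27 at 2 h did not differ from 1 h in limma (adjusted p = 0.611). Outside the interferon lists, Hcar2, the niacin receptor, went from -0.24 to 2.37 and Hdc from 0.30 to 2.32.

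Several genes lower at 2 h than at 1 h were early regulators. Egr1 went from 4.14 ± 1.22 at 1 h to 0.61 ± 1.69 at 2 h, with the set values above. Btg2, an antiproliferative immediate-early gene, went from 3.81 to 0.98, a difference of -2.83 (SE 0.40, adjusted p = 8.985e-06). At 2 h Btg2 was called higher than untreated, but not without set 3 (0.62, adjusted p = 0.166). Klf10 went from 1.78 to -0.18, Sertad1 from 2.19 to 0.40 and Ddit3, the stress factor Chop, from 1.15 to -0.28. Jun went from 0.60 to -1.02. Nfkbiz, Tnf and Dusp1, with differences of -0.09, 0.43 and -0.82, did not pass the threshold between these times (adjusted p = 0.991, 0.879 and 0.341).

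**Figure D4:**
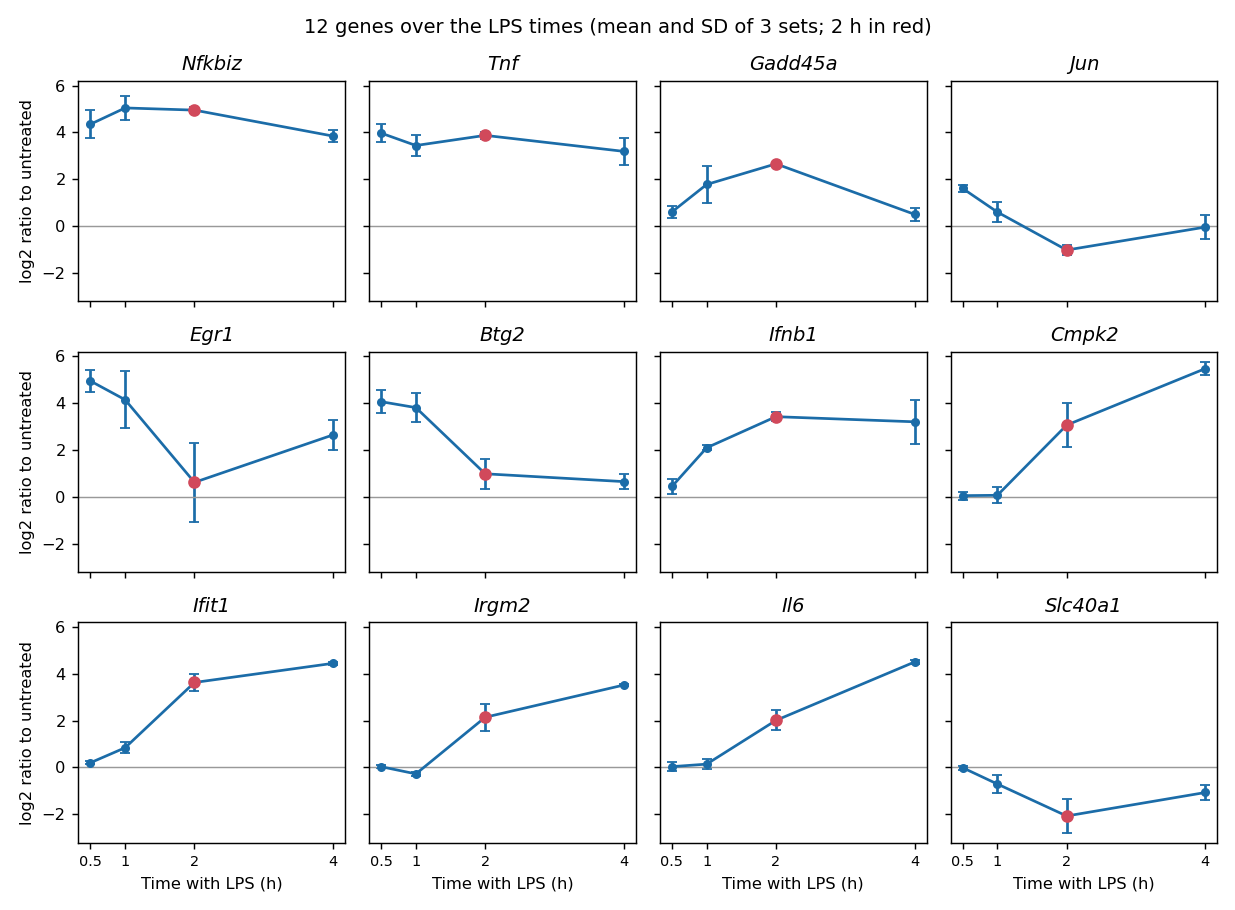
Mean log2 ratio to untreated (vertical axis) with SD over 3 sets for 12 genes at 0.5, 1, 2 and 4 h of LPS; the 2 h mean is in red. Nfkbiz is high from the first time, Btg2 is high early and at 0.98 by 2 h, and Cmpk2 is near 0 at 1 h and at 3.06 by 2 h.

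Of the 909 genes higher at 2 h, 288 were also called higher at 1 h, which is 31.7% of the 2 h genes and 79.6% of the 362 called at 1 h. With 4 h the shared genes numbered 670, which is 73.7% of the 2 h genes and 45.4% of the 1475 called at 4 h. Of the 948 lower genes 193 were lower at 1 h and 700 at 4 h, 20.4% and 73.8% of the 2 h genes. The lower genes at 1 h and 4 h numbered 287 and 1841, of which these were 67.2% and 38.0%.

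Between 2 h and 4 h, 799 genes differed (6.89%), 464 higher at 4 h (4%) and 335 lower (2.89%). Without set 1 the count was 276. With set values scaled to a common spread it was 257, of which 79.0% were higher at 4 h in place of 58.1%. Antiviral effectors were higher at 4 h for 19 of 26 (median 2.88 at 4 h), and all 7 GTPases were higher. Cfb, complement factor B, was at 0.35 at 2 h, not called, and 3.41 at 4 h, a difference of 3.06 (SE 0.25, adjusted p = 3.96e-11). Iigp1 went from 0.32 to 3.35, Il6 from 2.01 to 4.50 and Saa3 from 3.32 to 4.91. In G1 and S phase 7 of 24 genes and in G2 and M phase 6 of 17 were lower at 4 h than at 2 h.

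The genes lower at 4 h than at 2 h were led by Gadd45a, at 2.66 ± 0.03 and 0.50 ± 0.28, a difference of -2.16 (SE 0.28, adjusted p = 3.91e-07). Tsc22d1, a relative of Tsc22d3, went from 1.25 to -0.83, Herpud1 from 1.00 to -0.56 and Frmd6 from 2.18 to 0.75. Cd83 went from 3.88 to 2.69 and Gpr84 from 3.69 to 2.65. Nfkbiz, Tnf and Dusp1 did not pass (differences of -1.11, -0.68 and -0.97; adjusted p = 0.0597, 0.501 and 0.103).

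Some genes were called at 2 h and differed from both neighbouring times, comparisons that share the 2 h values. The 13 that stood above both were Lif (0.76, 1.63 and 0.97 at 1, 2 and 4 h), Noct (1.48, 2.15 and 1.08), a deadenylase-related circadian gene, Phxr4 (0.33, 2.30 and 1.29), Xirp1 (0.29, 1.36 and 0.27), Zbtb7a, Slc39a13, Ctu1, Rasa2, Nin, Mtfmt, Map4k5 and unnamed probes. The 5 that lay below both were Jun (0.60, -1.02 and -0.04), Tnfaip8l2 (-0.37, -1.31 and -0.16), Ccng2 (0.01, -1.09 and -0.32), Ptpro (-0.17, -1.005 and 0.09) and Frmd4b (-0.02, -1.13 and -0.33). Another 64 genes were higher at 2 h than at 1 h and higher again at 4 h.

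The comparison with IFNG at 2 h asked where the bacterial and the lymphocyte signal differ at the same time. IFNG is a cytokine of T cells and natural killer cells with a receptor of its own. The groups may share untreated RNA of a set, so only their difference was tested. At an adjusted p under 0.05, 819 genes differed (7.07%), 419 higher with LPS (3.62%) and 400 lower (3.45%), and without set 1 the count was 371. Of the NF-kB list 8 of 11 were higher with LPS and 0 lower, and of the cytokines 11 of 20 were higher and 1 lower. Myc differed most, at 4.19 ± 0.44 with LPS and -1.06 ± 0.09 with IFNG, a difference of 5.25 (SE 0.33, adjusted p = 7.44e-15). Il1b was at 4.58 and -0.02, Dusp1 at 3.12 and -1.003, and Ifnb1 at 3.42 and 0.16.

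**Figure D5:**
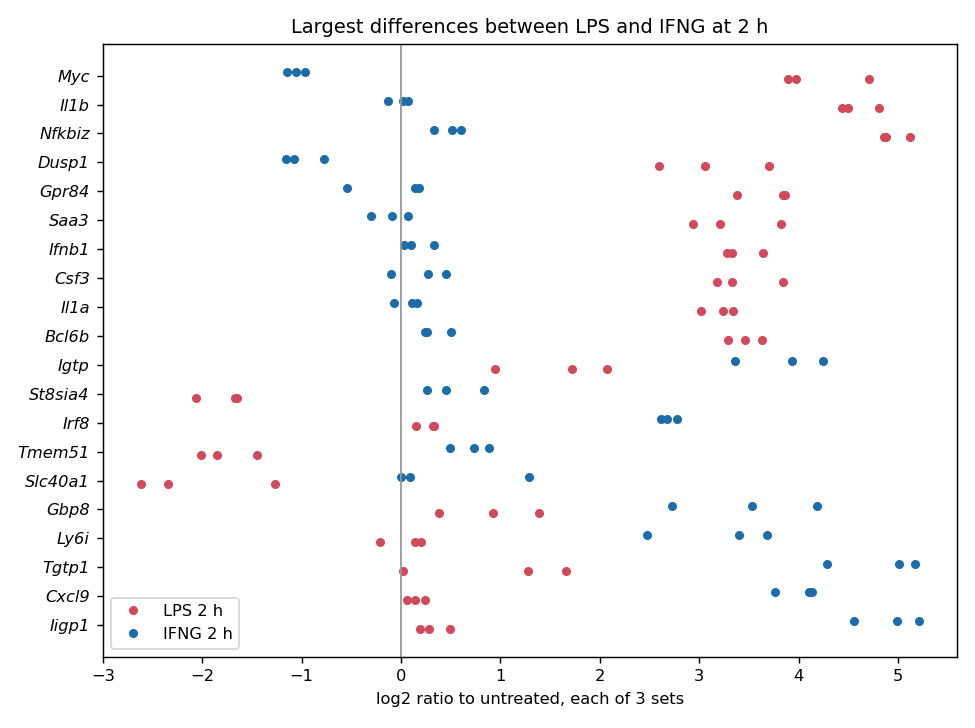
Log2 ratio to untreated in each of 3 sets (horizontal axis) for LPS at 2 h (red) and IFNG at 2 h (blue), for the 10 named genes with the largest difference in each direction. The sets of the 2 ligands do not overlap for any of these 20 genes. The genes were chosen for large differences with the same sign in all 3 sets. The lack of overlap follows largely from that choice and is no separate result.

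All 7 GTPases were lower with LPS than with IFNG at 2 h, including those that LPS had raised. Iigp1 was at 0.32 ± 0.16 with LPS and 4.92 ± 0.33 with IFNG, a difference of -4.60 (SE 0.30, adjusted p = 6.04e-14). Tgtp1 was at 0.99 and 4.82, and Irgm2 at 2.14 and 4.19. Cxcl9, a chemokine of IFNG responses, was at 0.15 and 4.00, Ly6i at 0.04 and 3.19, and Irf8, a macrophage lineage factor, at 0.27 and 2.69. Antiviral effectors went both ways, with 7 of 26 higher with LPS and 4 lower, and list medians of 1.11 and 1.34. Ifit1 (3.63 and 1.75) and Mx2 (2.89 and 1.22) were higher with LPS, and Zbp1 (0.90 and 2.20) and Ifi204 (1.59 and 2.50) with IFNG. Socs1 was at 0.99 and 3.00, and Fcgr1 at -0.45 with LPS and 1.51 with IFNG.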

How the data were processed

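Two-colour arrays compared LPS-treated with untreated RAW 264.7 cells. The deposited values were log2 ratios of Cy5 over Cy3, as the values and channel labels show; the authors' scanner processing, background correction and centring are not given in the sources used here. Exact 0 was read as missing. Signs were turned to treated over untreated by the channel labels, both dye orders of a set were averaged, and probes of a gene were averaged. Of 16281 probes, 13738 had 1 gene in the platform annotation, 52 several and 2491 none. Probes needed values in at least 2 of 3 sets of every group, which kept 13698 probes and 11589 genes or unnamed probes (1838 unnamed). limma 3.58.1 in R 4.3.3 fitted 1 mean per group over all 16 groups, with Benjamini-Hochberg adjustment and a threshold of 0.05. On simulated data for LPS at 2 h, run on 11589 genes, 66.7% of genes changed by 0.5 on the log2 scale and 100% of those changed by 1 were recovered. The simulated noise was normal, independent between sets and drawn from the fitted spreads. It held no deviating set and no correlation between samples, so it checks the code and does not give the power in these data.

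Named genes were the 20 largest rises and 15 largest falls with 1 sign on all 6 arrays, the 10 largest differences in each direction with 1 sign in 3 sets, and list members with the largest changes or a central role. Members and lists were chosen with earlier results of these data known. Set numbers paired the LPS 2 h and 4 h samples (correlations of same-set deviations 0.300, 0.420 and 0.132). The requirement of over 0.1 in every set was not met for 1 h with 2 h (-0.238, 0.0969 and 0.297) or for LPS with IFNG, where sets 1 and 2 were at 0.516 and 0.437 and set 3 at -0.0316. Alternatives covered scaling, dye order, filters, blocks, the samples fitted and each set left out. Promoter windows came from RefSeq on GRCm38.p6.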

Additional observations from a re-analysis of the deposited data

Results flagged for a closer look

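The response at 2 h differed from that at neighbouring times and from IFNG by a test of the difference itself. These were the 282 genes that differed between 1 h and 2 h, the 799 between 2 h and 4 h, and the 819 between LPS and IFNG at 2 h.

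Some genes of the lists had values on too few of the 6 arrays to be tested, and were picked here because at least 1 array read a change of 2-fold or more. On the array with its highest value, Acod1, which makes itaconate, read 5.368, Cxcl2, a neutrophil chemokine, 4.952, Nfkbia 2.761 and Junb 1.737, each with a value on 1 of 6 arrays. Il1rn, the interleukin-1 receptor antagonist, reached 2.537 with 3 arrays measured. Icosl reached 2.083, Cd44 1.495 and Cybb 1.353 with 4 arrays each; for Cybb 3 of the 4 were above 0. Each of these highest values comes from 1 array and so from 1 dye order. In the only set with both dye orders, Il1rn was at 2.05, Icosl at 0.82 and Cybb at -0.12 (set 3), and Cd44 at 1.46 (set 2). These values have no replicate check over sets.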

How the results depend on the processing

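The 35 genes with the largest changes at 2 h kept their direction and their call under each alternative that could test them, except Ddit4 without set 1 (-1.19, adjusted p = 0.0755). With a value required in all 3 sets of every group, 25 of the 35 could be tested. The counts moved more. Leaving out a set in turn gave 998 to 1656 genes at 2 h, 76 to 251 between 1 h and 2 h, 276 to 671 between 2 h and 4 h, and 371 to 581 against IFNG, lowest without set 1 each time. Fitting only the compared groups, which leaves fewer samples, gave 1027, 184 and 336 in the first 3 comparisons. Scaling sets to a common spread gave 148 between 1 h and 2 h and 257 between 2 h and 4 h. With treated RNA in Cy5 only these were 184 and 503; in Cy3 only they were 143 and 498, and 508 against IFNG. A fit of 96 arrays with a dye term gave 487 between 1 h and 2 h, and a random replicate block of set within time gave 1584 against IFNG; the causes were not tested. With set number as replicate block the counts were 2394, 423, 1143 and 1152 and held all genes called without it, so the pairing ended no call. The largest changes exceeded the spread between sets. At the median standard error of 0.11, small changes were not detected reliably, although some were called.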

Other observations

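Of the 226 named genes that changed 2-fold or more, 131 belonged to none of the gene lists, 102 higher and 29 lower; those named here were chosen after their values were seen. Stx11, a syntaxin of secretory cells, had log2 ratios of 3.07, 2.94 and 2.48 in sets 1 to 3, Ehd1, an endocytic recycling protein, 2.35, 2.32 and 2.30, and the related Marcksl1 and Marcks had means of 2.62 and 2.17. Peli1, a ubiquitin ligase of Toll-like receptor signalling, was at 2.52, Odc1, which starts polyamine synthesis, at 2.39, and Trex1, an exonuclease that removes cytosolic DNA, at 2.00. Of genes that encode growth factors, Pdgfb was at 1.82, Pdgfa at 1.56, Vegfc at 1.56 and Hbegf at 1.19; growth factors were not tallied as a group. Among the falls outside the lists, Tgfbr2, a receptor of TGF-beta, was at -1.16 and Smad6, an inhibitor of the same family of signals, at -1.03.

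A further 30 probes with a 2-fold change had no gene name here, 23 higher and 7 lower, with means from -1.65 to 3.40.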
